A study of Homo sapiens with 6 samples.

Results

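Nucleoporins, importins and exportins are the proteins that build the nuclear pore and carry cargo through it. The 53 genes described here are the protein-coding genes of the deposited count table whose symbol is that of a numbered nucleoporin (NUP), of TPR, SEH1L, RAE1, AAAS, NDC1, POM121 or POM121C, of an importin alpha or beta (KPNA, KPNB), of a numbered importin (IPO), of a transportin (TNPO1 to TNPO3), of the exportins XPO1, XPO4, XPO6 and XPO7, of CSE1L or of RAN. They were chosen by name and not by their values, although earlier results of these data were known. The table held 30270 genes, of which 15984 were protein-coding. Total RNA depleted of ribosomal RNA was sequenced from HEK 293T, an immortalized human embryonic kidney line that carries the SV40 large T antigen. There were 3 wild-type libraries (WT) and 3 libraries whose genotype label reads TENT3A/B knockout, the pair of uridylyltransferases also called TUT4 and TUT7, and that are named ΔTUT4/7 here. Both groups were cultured in the same serum-supplemented medium and the labels give no treatment for either. Each group is 1 line, the knockout line had been made before this study, and whether it is a single clone is not given in the sources used here, so p-values measure the spread between libraries of 2 lines.

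The nuclear pore complex is a ring-shaped channel through both nuclear membranes. Scaffold rings, the Y complex and the inner ring, hold it in the curved pore membrane, and nucleoporins rich in phenylalanine-glycine (FG) repeats fill the channel and form its barrier. Karyopherins, the importins and exportins, bind cargo and FG repeats and so cross the barrier. The small GTPase RAN, loaded with GTP in the nucleus and hydrolysing it in the cytoplasm, sets the direction of transport. TUT4 and TUT7 add uridines to the 3′ ends of RNAs, among them microRNA precursors and short-tailed mRNAs.

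The libraries held 18757228, 24857173 and 29891630 estimated counts in WT and 33148937, 20408184 and 20339896 in ΔTUT4/7, so that all members but NUP210L averaged at least 50 counts. Within a group, libraries correlated at 0.991 to 0.995 across genes, and between groups at 0.906 to 0.910. The targeted genes did not both follow the label. TUT7 was lower in the libraries labelled ΔTUT4/7 (60.4 to 64.8 CPM in WT, 25.2 to 27.2 CPM in ΔTUT4/7), whereas TUT4 was higher there (206 to 216 against 882 to 920 CPM). CPM, the usual unit of sequencing counts, is the estimated count relative to the library size, here after scaling with TMM (trimmed mean of M values) factors. The labels do not say how the genes were disrupted, and a count over a whole gene does not tell an intact transcript from an altered one. The cause of the TUT4 rise was not tested, and every direction below rests on the label as deposited. Of 8 genes that mark the HEK 293 line, 5 were lower and 3 higher in the libraries labelled ΔTUT4/7. By the same test, described below, 29.0% of all tested genes were lower and 28.6% higher. NEFM fell from a mean of 969 CPM to 0.0170 CPM. The 3 that rose were VIM (means of 496 and 1250 CPM), CDH2 (26.5 and 60.2 CPM) and KRT18 (30.5 and 44.3 CPM). Of 11 markers of other cell types 4 reached the count needed for testing, and 3 of these were lower in the libraries labelled ΔTUT4/7, with means of 20.4 and 7.45 CPM for COL1A1, 2.24 and 0.844 CPM for GFAP and 1.07 and 0 CPM for EPCAM. The part of these differences in the results below was not tested. In bulk RNA, fewer cells that express a gene and less RNA per cell cannot be told apart.

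Most of these transport mRNAs were more abundant in the libraries labelled ΔTUT4/7. All 53 members were tested with edgeR's quasi-likelihood test over 23952 genes, and a gene was called at a Benjamini-Hochberg adjusted p (FDR) under 0.05. Of the members, 39 rose (73.6%), 9 fell (17.0%) and 5 did not pass the test. Of all tested genes, 28.6% were higher and 29.0% lower, so that 57.7% were called in either direction, against 90.6% of the members. Of the 12447 protein-coding genes that averaged at least 50 counts, 42.7% were higher and 31.7% lower. The median log2 fold change (ΔTUT4/7 minus WT) of the members was 0.36, and that of all tested genes was -0.02, of tested protein-coding genes 0.05 and of these 12447 genes 0.08.

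The changes were mostly small and mostly well separated from the spread between libraries. The 6 libraries fell into ranges that did not overlap for 50 members (94.3%, against 62.7% of all tested genes). The same held for 10826 of the 14766 tested protein-coding genes. Both backgrounds include genes with lower counts than nearly all members. Only 4 members rose by 2-fold or more (NUP210, IPO4, RAE1 and RAN, where 5.90% of all tested genes did) and 1 fell by that much (NUP62CL, where 12.4% did), and 33 members changed by less than 0.5 on the log2 scale. The standard error of a member's log2 fold change had a median of 0.05. Summed over the members, 9929 to 10309 CPM in the WT libraries became 12911 to 13124 CPM, a ratio of 1.30, where the same sum over all tested protein-coding genes had a ratio of 1.12 and that over all tested genes 1.08. The 30 nucleoporins made up 4399 to 4580 CPM of the WT sum and 5446 to 5567 CPM of the other (22 rose, 5 fell, median log2 fold change 0.30), and the 22 importins and exportins made up 5113 to 5326 and 6682 to 6842 CPM (16 rose, 4 fell, median 0.43).

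**Figure D1:**
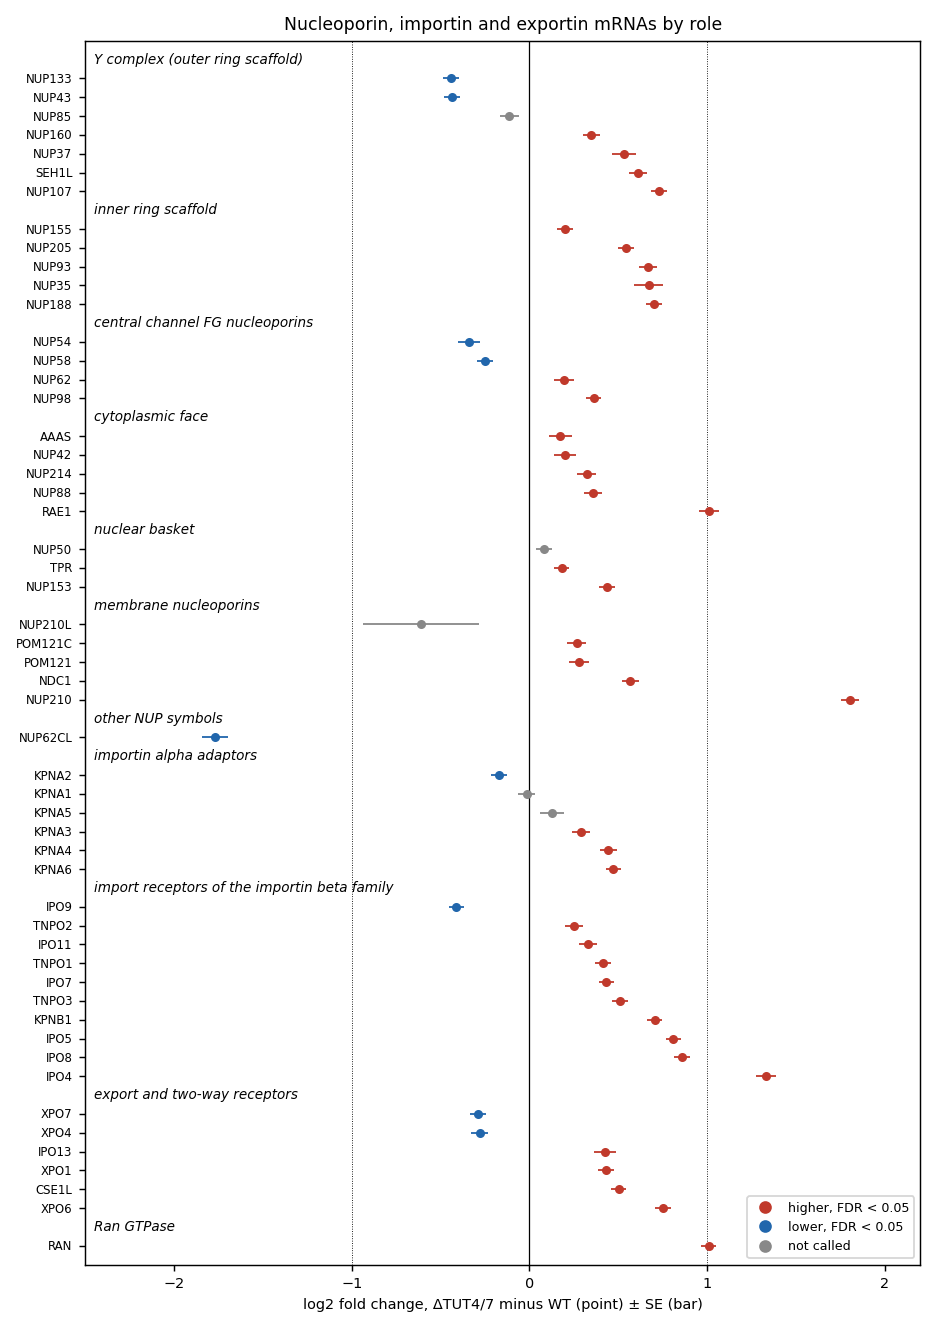
Log2 fold change (ΔTUT4/7 minus WT, horizontal axis) of each of the 53 genes, grouped by role; bars are standard errors from edgeR, n = 3 libraries a group, and dotted lines mark a 2-fold change. Red points (39) rose, blue points (9) fell and grey points (5) did not pass an FDR of 0.05; the 5 inner ring genes and the 5 genes of the cytoplasmic face all lie to the right of 0.

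Promoters of 4 members are printed, those of the genes at either end of the range and those of RAN and NUP188 as examples with an E-box, from RefSeq on GRCh38.p14, 5′ to 3′ on the gene's strand. RAN (chr12:130871816-130872036, plus strand) and NUP188 (chr9:128947604-128947698, plus) rose, NUP210 (chr3:13420323-13420572, minus) rose the most and NUP62CL (chrX:107206434-107206610, minus) fell the most. Capitals mark the GC box GGGCGG, the E-box CACGTG and the CCAAT box on either strand, and bases inside an annotated exon are left out.
RAN: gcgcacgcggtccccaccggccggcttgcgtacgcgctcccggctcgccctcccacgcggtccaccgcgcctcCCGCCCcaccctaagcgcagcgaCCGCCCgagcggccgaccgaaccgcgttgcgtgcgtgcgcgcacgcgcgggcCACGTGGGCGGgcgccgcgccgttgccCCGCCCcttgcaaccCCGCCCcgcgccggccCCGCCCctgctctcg
NUP188: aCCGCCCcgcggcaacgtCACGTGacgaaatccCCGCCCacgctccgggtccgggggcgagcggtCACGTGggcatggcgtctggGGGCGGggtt
NUP210: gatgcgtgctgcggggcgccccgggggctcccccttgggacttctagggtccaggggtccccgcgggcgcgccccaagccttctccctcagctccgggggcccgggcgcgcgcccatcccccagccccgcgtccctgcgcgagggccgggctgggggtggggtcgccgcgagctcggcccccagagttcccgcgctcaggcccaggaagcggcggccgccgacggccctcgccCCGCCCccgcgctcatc
NUP62CL: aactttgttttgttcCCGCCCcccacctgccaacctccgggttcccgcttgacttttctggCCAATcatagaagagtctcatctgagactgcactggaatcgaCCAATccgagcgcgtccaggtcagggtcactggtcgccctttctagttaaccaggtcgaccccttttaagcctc

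The RAN promoter held 6 GC boxes and 1 E-box, which shares bases with a GC box, and the NUP188 stretch held 3 GC boxes and 2 E-boxes. NUP210 held a single GC box, and NUP62CL held 1 GC box and 2 CCAAT boxes. RefSeq promoter entries were found for 48 members, of which 37 rose and 7 fell, and 250 bases before the start were searched on both strands. The E-box CACGTG, the word bound by MYC and MAX, was present in 8 of the 48 (16.7%, against 7.73% of all 27305 gene symbols with an entry), of which 7 rose (IPO4, IPO7, KPNA3, NUP188, RAN, TNPO2 and XPO1) and 1, NUP50, did not pass the test. The GC box was present in 27 (56.3%, against 46.2%), the CCAAT box in 22 (45.8%, against 37.0%) and the ETS word CCGGAAGT in 8 (16.7%, against 4.13%), 6 of which rose and 2 of which, NUP54 and NUP58, fell. The cyclic AMP response element TGACGTCA was present in 4 (2.03% of all symbols), the palindromic NRF1 word in 3 (1.28%), the heat shock element word GAANNTTC in 3 (7.05%), TATAAA in 3 (13.1%) and the YY1 word AAGATGGCG in 1 (0.784%). The 27305 symbols were not limited to protein-coding or expressed genes, so the shares have no background matched to the members. These are matches of letters, and no binding was measured.

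The Y complex, the scaffold of the outer rings, was divided. NUP107, at its core, was at 113, 116 and 109 CPM in WT and at 183, 193 and 184 CPM in ΔTUT4/7. SEH1L, a propeller subunit of the short arm, was at 71.5, 72.6 and 66.6 CPM and then at 104, 110 and 108 CPM. All ΔTUT4/7 libraries lay above all WT libraries for both genes, with log2 fold changes of 0.73 ± 0.05 (SE, FDR = 1.46e-11) for NUP107 and 0.61 ± 0.05 (FDR = 1.15e-09) for SEH1L. NUP133, the stem subunit at the tip of the Y, was at 290, 318 and 293 CPM in WT and at 220, 221 and 223 CPM in ΔTUT4/7. NUP43, another propeller subunit, was at 186, 197 and 202 CPM and then at 141, 147 and 144 CPM. For this pair the order was the opposite, with every ΔTUT4/7 library below every WT library, and both fell by 0.44 ± 0.05 on the log2 scale (FDR = 2.79e-08 for NUP133 and 3.89e-08 for NUP43). NUP85 was at 72.7, 78.1 and 80.7 CPM in WT and at 70.4, 72.1 and 72.0 CPM in ΔTUT4/7. Its change of -0.11 ± 0.05 on the log2 scale missed the threshold (FDR = 0.0729). NUP85 passed as lower in 5 of 15 alternative analyses, among them without WT replicate 1 (-0.16, FDR = 0.0224) and with library size alone (-0.23, FDR = 0.000840). The other members, NUP160 and NUP37, rose, so that 4 of 7 rose and 2 fell (median log2 fold change 0.35). Both directions were also common in the background, where 42.7% of protein-coding genes averaging at least 50 counts were higher and 31.7% lower. The summed level of the 7 Y complex members was close to that of WT (959 to 1028 CPM against 1012 to 1046 CPM, ratio 1.04). This sum is not that of the whole complex. It leaves out SEC13 (log2 fold change 0.98) and NUP98 (0.36), whose gene also encodes the Y complex protein NUP96.

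The inner ring, the scaffold next to the pore membrane, rose as a whole. All 5 members were called higher, with a median log2 fold change of 0.67 and a summed level of 1007 to 1058 CPM in WT and 1411 to 1466 CPM in ΔTUT4/7. NUP188, one of its large curved scaffold proteins, was at 185, 189 and 176 CPM in WT and at 301, 289 and 306 CPM in ΔTUT4/7 (0.70 ± 0.04, FDR = 1.59e-11). NUP93, which links the scaffold to the channel nucleoporins, was at 72.0, 67.1 and 73.8 CPM and then at 116, 110 and 112 CPM (0.67 ± 0.05, FDR = 2.98e-10). NUP35, the member that binds the membrane, was at 20.2, 25.5 and 21.3 CPM and then at 34.7, 37.5 and 34.8 CPM (0.67 ± 0.08, FDR = 3.44e-07). The groups were apart for each of the 5. NUP205, a relative of NUP188, and NUP155 had log2 fold changes of 0.55 and 0.20, and NUP155 missed the threshold with upper-quartile factors, with library size alone and with limma on log2(CPM + 1) (lowest value 0.09).

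The 4 FG nucleoporins of the central channel went both ways, with a median log2 fold change of -0.03. So did the protein-coding genes that averaged at least 50 counts (42.7% higher, 31.7% lower). NUP54 was at 82.9, 89.9 and 77.5 CPM in WT and at 62.3, 68.8 and 66.9 CPM in ΔTUT4/7. NUP58 was at 187, 197 and 186 CPM and then at 158, 160 and 161 CPM. Both of these partners of NUP62 in the channel trimer fell, NUP54 by 0.34 ± 0.06 (FDR = 4.52e-05) and NUP58 by 0.25 ± 0.04 (FDR = 4.62e-05) on the log2 scale, with no overlap between groups, while NUP62 itself was called higher (0.19 ± 0.05, FDR = 0.00397, a call lost under those same 3 settings; 16.4% of its read-length windows occur in other annotated genes). NUP98, whose gene also encodes the Y complex protein NUP96 as part of the same precursor, was at 223, 228 and 216 CPM in WT and at 282, 279 and 295 CPM in ΔTUT4/7 (0.36 ± 0.04, FDR = 3.02e-07). The sum over the 4 channel genes was 599 to 621 CPM in WT and 631 to 660 CPM in ΔTUT4/7.

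On the cytoplasmic face all 5 members were called higher (median log2 fold change 0.32). RAE1 (chr20:57351223-57379211 on hg38), an mRNA export factor that binds NUP98, was at 39.0, 42.6 and 43.4 CPM in WT and at 85.6, 84.7 and 81.6 CPM in ΔTUT4/7. It rose by 1.01 ± 0.06 on the log2 scale (FDR = 1.76e-12), with every ΔTUT4/7 library above every WT library. NUP88, which anchors the cytoplasmic filaments, was at 67.1, 70.6 and 66.2 CPM and then at 86.8, 87.1 and 87.6 CPM (0.36 ± 0.05, FDR = 2.54e-06). The gene RABEP1 lies on the opposite strand and 38.5% of the 76-base windows of the NUP88 transcript, the length of a read, also occur in it on one strand or the other. RABEP1 itself rose from 147 ± 3.99 to 192 ± 2.59 CPM (mean ± SD, n = 3), the strand of the reads is not given in the sources used here, and reads of the shared stretch cannot be told apart. NUP214, NUP42 and AAAS had log2 fold changes of 0.32, 0.20 and 0.17. The last is the least secure call, since AAAS passed in only 7 of 15 alternative analyses (log2 fold change 0.05 to 0.22, FDR 0.0108 to 0.508) and lost its call without WT replicate 2, ΔTUT4/7 replicate 1 or ΔTUT4/7 replicate 3. NUP42 passed in 10 of 15 (0.09 to 0.22, FDR 0.00636 to 0.259) and lost its call without WT replicate 1, and 33.1% of the read-length windows of NUP42 occur in another annotated gene.

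In the nuclear basket, which reaches into the nucleoplasm, NUP153 and TPR rose and NUP50 did not pass the test. NUP153, an FG nucleoporin of the nuclear side, was at 229, 243 and 241 CPM in WT and at 321, 319 and 326 CPM in ΔTUT4/7 (0.44 ± 0.04, FDR = 1.38e-08). TPR, the long coiled-coil protein of the basket filaments, was at 620, 635 and 652 CPM and then at 717, 724 and 724 CPM (0.18 ± 0.04, FDR = 0.000688). Both pairs of ranges were apart, although the TPR change was small and depended on the scaling of the libraries (0.07, FDR = 0.175, with library size alone). NUP50, a cofactor of importin alpha cargo release, was at 197, 206 and 203 CPM and then at 206, 220 and 216 CPM, the lowest ΔTUT4/7 library lying at the level of the highest WT library (0.08 ± 0.04, FDR = 0.118).

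Among the membrane nucleoporins, NUP210 rose the most of all 53 genes. NUP210 (chr3:13316235-13420322 on hg38, minus strand), a glycoprotein whose bulk lies in the lumen between the nuclear membranes, was at 52.4, 49.8 and 51.7 CPM in WT and at 183, 168 and 186 CPM in ΔTUT4/7. The lowest ΔTUT4/7 library lay far above the highest WT library, and the means of 51.3 ± 1.31 and 179 ± 9.83 CPM (SD, n = 3) gave a ratio of 3.49 and a log2 fold change of 1.81 ± 0.05 (FDR = 5.41e-17). NDC1, which anchors the pore in the membrane, was at 184, 204 and 182 CPM and then at 277, 284 and 282 CPM (0.57 ± 0.05, FDR = 1.29e-09). NUP210L, a paralog of NUP210 known from the testis, was near the limit of detection at 0.713, 1.04 and 1.57 CPM in WT and 0.811, 0.619 and 0.766 CPM in ΔTUT4/7, and its log2 fold change of -0.61 ± 0.33 did not pass the test (FDR = 0.116), although it did without WT replicate 1 (-0.83, FDR = 0.0389).

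POM121 and POM121C are near-identical transmembrane nucleoporins encoded on chromosome 7. POM121 was at 126, 116 and 139 CPM in WT and at 153, 152 and 159 CPM in ΔTUT4/7, and POM121C at 95.2, 94.3 and 108 CPM and then at 119, 119 and 120 CPM. Their log2 fold changes of 0.28 ± 0.06 (FDR = 0.000256) and 0.27 ± 0.05 (FDR = 0.000199) are nearly equal, and 53.0% of the read-length windows of POM121 and 51.7% of those of POM121C occur in another gene, for the most part in each other. The model that made the counts could therefore split their reads, and the 2 genes summed gave a log2 fold change of 0.28.

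NUP62CL fell the most. This gene on the X chromosome (chrX:107123427-107206433, minus strand) carries the name of NUP62 for its similarity to part of that protein and is no established pore subunit. It was at 38.9, 43.1 and 42.6 CPM in WT and at 12.2, 12.5 and 11.9 CPM in ΔTUT4/7. Every ΔTUT4/7 library was below every WT library, the ratio of means was 0.294 and the log2 fold change -1.77 ± 0.08 (FDR = 2.29e-14).

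**Figure D2:**
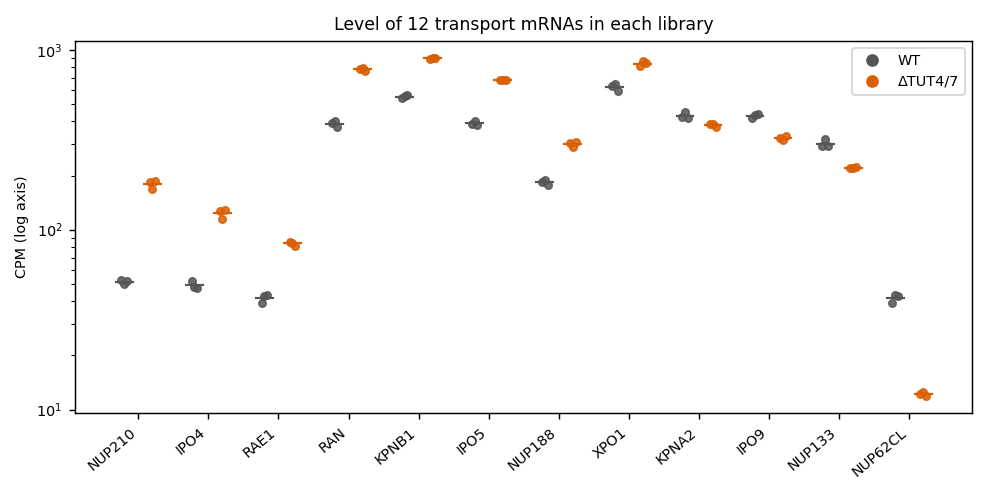
Level in CPM (log axis) of 12 of the genes in each library; grey points are the 3 WT and orange points the 3 ΔTUT4/7 libraries, and horizontal bars are group means. The groups are apart for each gene shown, from NUP210 (51.3 against 179 CPM) to NUP62CL (41.6 against 12.2 CPM).

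RAN (chr12:130872037-130877678 on hg38, plus strand), the GTPase whose GTP-bound form releases import cargo and holds export cargo, was at 390, 403 and 372 CPM in the WT libraries and at 784, 796 and 762 CPM in those labelled ΔTUT4/7. The level was thus 2.01 times as high, with no overlap (log2 fold change 1.01 ± 0.04, FDR = 3.50e-14). A processed pseudogene, RANP1, shares 5.13% of the read-length windows of its transcript.

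The importin beta family supplies the carriers. Of its 10 import receptors 9 rose and 1 fell, with a median log2 fold change of 0.47 and a summed level of 2515 to 2584 CPM in WT and 3532 to 3610 CPM in ΔTUT4/7. KPNB1, importin beta itself and the partner of the importin alpha adaptors, was at 538, 550 and 561 CPM in WT and at 884, 904 and 900 CPM in ΔTUT4/7 (0.70 ± 0.04, FDR = 3.99e-12). IPO5, which carries ribosomal proteins and histones, was at 385, 404 and 380 CPM and then at 681, 683 and 681 CPM (0.81 ± 0.04, FDR = 6.29e-13). IPO8, a receptor related to IPO7, was at 132, 131 and 122 CPM and then at 229, 234 and 236 CPM (0.86 ± 0.05, FDR = 7.68e-13). For these 3 receptors even the lowest ΔTUT4/7 library lay well above the highest WT library.

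IPO4 (chr14:24180219-24188869, minus strand), an importer of histones and ribosomal proteins, rose the most of the receptors, from 52.1, 48.0 and 47.2 CPM in WT to 126, 115 and 129 CPM in ΔTUT4/7 (1.33 ± 0.06, FDR = 2.10e-14). An annotated gene that overlaps it shares 94.9% of its read-length windows, so the share of reads assigned to IPO4 is uncertain. In the deposited table the overlapping gene AL136295.4 was at 2.27 ± 0.692 CPM in WT and 5.32 ± 2.69 CPM in ΔTUT4/7 (mean ± SD, n = 3), and the sum of both genes again gave 1.33. IPO9, another importer of histones, went the other way, from 415, 434 and 438 CPM to 322, 315 and 331 CPM, with no overlap (-0.41 ± 0.04, FDR = 3.62e-08). The remaining receptors of the group, IPO7, IPO11, TNPO1, TNPO2 and TNPO3, rose by 0.25 to 0.51 on the same scale.

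Of the 6 export and two-way receptors, 4 rose and 2 fell. The background shares, over protein-coding genes averaging at least 50 counts, were 42.7% higher and 31.7% lower. XPO1, the exportin of proteins with a leucine-rich export signal, was at 628, 645 and 590 CPM in WT and at 810, 864 and 840 CPM in ΔTUT4/7 (0.43 ± 0.05, FDR = 3.73e-08). CSE1L, which returns importin alpha to the cytoplasm, was at 388, 405 and 388 CPM and then at 551, 574 and 549 CPM (0.50 ± 0.04, FDR = 1.37e-09). XPO6, the exportin of actin and profilin, was at 135, 130 and 129 CPM and then at 230, 215 and 218 CPM (0.75 ± 0.05, FDR = 5.70e-12). In each case all ΔTUT4/7 libraries were above all WT libraries, and IPO13, a receptor that works in both directions, rose by 0.42. XPO4 was at 154, 169 and 151 CPM in WT and at 127, 130 and 133 CPM in ΔTUT4/7, and XPO7 at 176, 186 and 180 CPM and then at 147, 145 and 151 CPM. XPO4 exports the translation factor eIF5A, XPO7 carries a broad set of cargoes, and they fell by 0.28 ± 0.05 (FDR = 4.73e-05) and 0.29 ± 0.04 (FDR = 7.97e-06) on the log2 scale, again without overlap.

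The importin alpha adaptors, which recognise the classical nuclear localisation signal and bind KPNB1, went in both directions. Among them 3 rose, 1 fell and 2 did not pass (median log2 fold change 0.21, range -0.17 to 0.47). Beside this stand shares of 42.7% higher and 31.7% lower over protein-coding genes that averaged at least 50 counts. KPNA2 was at 422, 451 and 418 CPM in WT and at 385, 386 and 374 CPM in ΔTUT4/7, apart by a small margin (-0.17 ± 0.04, FDR = 0.00195). KPNA6 rose from 241, 242 and 243 CPM to 333, 327 and 346 CPM (0.47 ± 0.04, FDR = 3.44e-09), and KPNA4 from 127, 138 and 132 CPM to 171, 183 and 186 CPM (0.44 ± 0.05, FDR = 6.84e-08). KPNA3 rose as well, by 0.29. KPNA1 was at 133, 148 and 135 CPM and then at 134, 136 and 141 CPM, and KPNA5 at 48.3, 54.5 and 46.9 CPM and then at 50.6, 58.5 and 54.8 CPM. Their groups overlapped, with log2 fold changes of -0.02 ± 0.05 (FDR = 0.801) and 0.13 ± 0.07 (FDR = 0.116). KPNA5 passed without WT replicate 2 (0.19, FDR = 0.0211) and without ΔTUT4/7 replicate 1 (0.18, FDR = 0.0470). KPNA1 passed as lower with library size alone (-0.13, FDR = 0.0317) and with limma on log2(CPM + 1) (-0.13, FDR = 0.0382). Parts of the KPNA1 and KPNA2 transcripts (18.4% and 10.4% of read-length windows) also occur in other annotated genes.

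Per length, the makeup of the adaptor mRNAs moved away from KPNA2. CPM was divided by the length of the reference transcript and expressed as a percentage of the 6 adaptors in the same library. KPNA2 held 67.8%, 68.3% and 68.0% in WT and 61.2%, 60.4% and 59.3% in ΔTUT4/7, and KPNA6 held 10.4%, 9.85% and 10.6% and then 14.2%, 13.8% and 14.7%. KPNA3 went from 9.40% ± 0.408 to 11.5% ± 0.341 and KPNA4 from 4.62% ± 0.118 to 6.28% ± 0.251 (mean ± SD, n = 3), while KPNA1 (6.29% ± 0.147 and 6.22% ± 0.183) and KPNA5 (1.38% ± 0.0571 and 1.51% ± 0.0972) differed by less than or about their spread. Counts without the gene's length cannot give these shares, and a different transcript in use would change them. Within the importin beta family, 16 genes, the same calculation gave IPO9 5.15% ± 0.166 in WT and 2.76% ± 0.0869 in ΔTUT4/7, XPO7 5.08% ± 0.0870 and 2.96% ± 0.0736, and XPO4 2.19% ± 0.0926 and 1.29% ± 0.0253. IPO5 went from 8.89% ± 0.126 to 11.1% ± 0.109, KPNB1 from 12.4% ± 0.388 to 14.4% ± 0.0487 and IPO4 from 1.92% ± 0.113 to 3.44% ± 0.226. XPO1 (17.1% ± 0.509 and 16.4% ± 0.341) and CSE1L (15.2% ± 0.127 and 15.3% ± 0.255) remained the most abundant of the family per length.

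**Figure D3:**
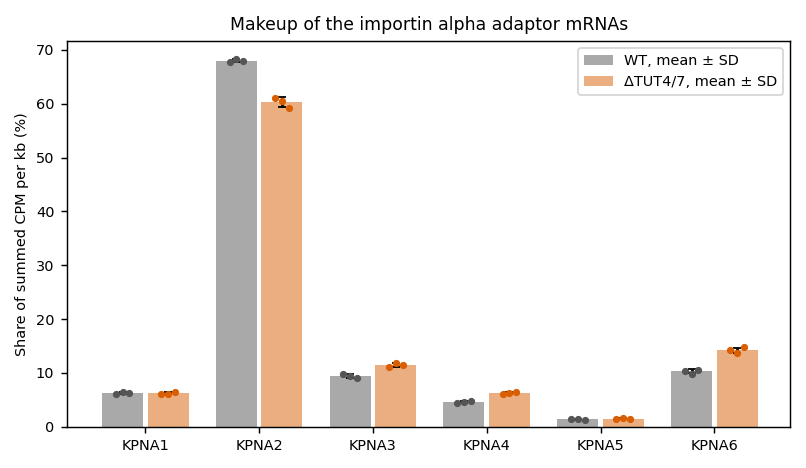
Share of each importin alpha gene in the summed CPM per kb of the 6 genes (percent, vertical axis, from 0); bars are means, error bars SD over 3 libraries, points single libraries, grey WT and orange ΔTUT4/7. The KPNA2 points lie at 67.8% to 68.3% in WT and at 59.3% to 61.2% in ΔTUT4/7, while KPNA3, KPNA4 and KPNA6 are higher in ΔTUT4/7.

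Across all members, levels per kb of transcript spanned from NUP210L (mean of 0.189 CPM per kb in WT and 0.125 in ΔTUT4/7) to KPNA2 in WT (218) and RAN in ΔTUT4/7 (316). Apart from NUP210L, the lowest level in WT was that of KPNA5 (4.42 CPM per kb), followed by NUP210 (7.12) and NUP93 (8.62). In ΔTUT4/7 NUP210 had reached 24.9 CPM per kb, in the range of NUP88 (24.1) and POM121 (26.5). The most abundant nucleoporin mRNAs per length in WT were NUP205 (66.1 CPM per kb) and TPR (66.0), and in ΔTUT4/7 they were NUP205 (96.5) and again TPR (74.9).

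**Figure D4:**
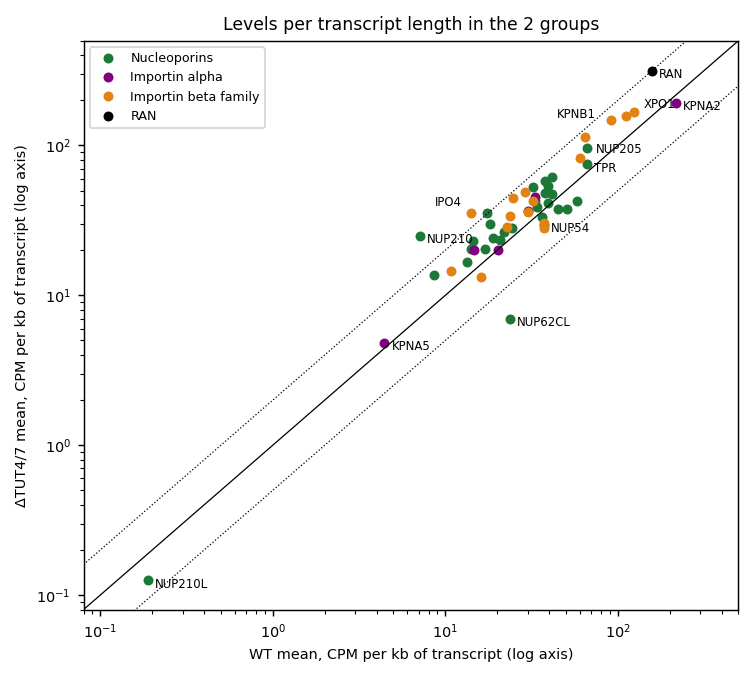
Mean level of each gene in CPM per kb of transcript in WT (horizontal, log axis) and ΔTUT4/7 (vertical, log axis), 3 libraries a group; the solid line marks equal levels and dotted lines a 2-fold difference. Most points lie a little above the line of equal levels. NUP210 and IPO4 lie clearly above the upper dotted line, RAE1 and RAN at that line, and NUP62CL below the lower one.

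The chromosomal surroundings of the members differed between the lines as well. For each member, the median log2 fold change was taken over the other protein-coding genes that averaged at least 50 counts and had a midpoint within 5 Mb, 22 to 173 genes each. These medians spanned from -0.66 around KPNA3 to 0.84 around RAN. RAN (log2 fold change 1.01) and IPO5 (0.81, neighbours 0.68) lay close to their neighbours, while NUP210 (1.81, neighbours 0.53), IPO4 (1.33, neighbours -0.04) and KPNB1 (0.70, neighbours 0.09) lay well above, and NUP62CL (-1.77, neighbours -0.34) well below.

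The 4 members on chromosome 13 sat in surroundings of unlike direction. The neighbours of XPO4, NUP58 and KPNA3 had medians of -0.47, -0.12 and -0.66, and those of IPO5 a median of 0.68, where XPO4 and NUP58 fell and KPNA3 and IPO5 rose. With the neighbours' median subtracted, 44 members lay above their surroundings and 9 below, the median of the members was 0.25, and 8 of the 48 called members changed sign. Of these, KPNA2, NUP43, NUP54, XPO4 and XPO7 were lower than in WT but came out above their neighbours (by 0.26, 0.15, 0.24, 0.19 and 0.02), and AAAS, NUP155 and NUP62 were higher than in WT but came out below them (by -0.09, -0.19 and -0.03). These 8 are named for this result, seen in the values, and the subtraction has no test. No shares over other genes stand beside these counts, so they do not show a trait particular to the members. Whether the surroundings have a part in the members' changes was not tested.

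**Figure D5:**
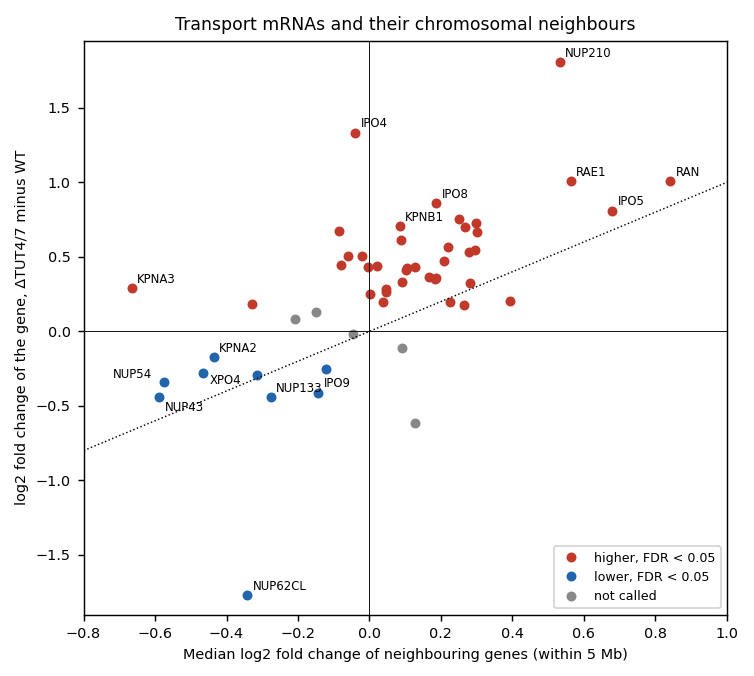
Log2 fold change (ΔTUT4/7 minus WT) of each gene (vertical) against the median of its neighbours within 5 Mb (horizontal); the dotted line marks equal values, and red, blue and grey are genes that rose, fell or did not pass an FDR of 0.05. RAN and IPO5 lie near the dotted line at the right, NUP210 and IPO4 far above it and NUP62CL far below it.

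Other genes of nuclear transport were listed by role and not by how they moved, although earlier results of these data were known. They were called higher in 40 of 74 tested cases and lower in 13, and 21 did not pass (median log2 fold change 0.20). The background, the protein-coding genes that averaged at least 50 counts, was 42.7% higher and 31.7% lower. In the RAN cycle 6 of 15 rose and 3 fell, close to that background, and the median log2 fold change was 0.04. RCC1, the exchange factor that loads RAN with GTP, was at 131, 126 and 132 CPM in WT and at 269, 272 and 265 CPM in ΔTUT4/7 (1.05 ± 0.04, FDR = 1.55e-14), and NUTF2, which brings RAN back into the nucleus, was at 51.3, 50.6 and 51.7 CPM and then at 96.8, 99.6 and 90.8 CPM (0.90 ± 0.05, FDR = 3.91e-12). For both genes the ranges of the groups were apart. The 3 that fell, RGPD2, RGPD5 and RGPD6, are near-copies of RANBP2, and their counts are uncertain.

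Among the 8 pore proteins without a NUP symbol, 3 rose and 1 fell (median log2 fold change 0.06). Of the protein-coding genes that averaged at least 50 counts, 42.7% were higher and 31.7% lower (median 0.08). SEC13, shared by the Y complex and the COPII coat, rose from a mean of 64.6 ± 3.34 to 128 ± 3.93 CPM (0.98 ± 0.05, FDR = 6.81e-13), and SENP1, a SUMO protease found at the pore, from 73.7 ± 1.77 to 113 ± 4.58 CPM (0.62 ± 0.05, FDR = 5.83e-10). Of 13 further karyopherins and adaptors 7 rose and 2 fell (median log2 fold change 0.22). XPO5, the exportin of microRNA precursors, went from 136 ± 3.88 to 196 ± 9.26 CPM (0.53 ± 0.05, FDR = 3.42e-09). BRAP, a protein that binds nuclear localisation signals, went from 33.4 ± 1.81 to 51.4 ± 0.836 CPM (0.62 ± 0.06, FDR = 1.54e-08).

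Of the 24 mRNA export factors tested, 18 rose and 3 fell (median log2 fold change 0.42). The background shares, over protein-coding genes that averaged at least 50 counts, were 42.7% higher and 31.7% lower. NXF1, the main mRNA export receptor, went from 58.6 ± 1.88 to 104 ± 0.946 CPM (0.83 ± 0.05, FDR = 5.68e-12), and THOC2 of the THO complex from 224 ± 6.10 to 377 ± 11.7 CPM (0.75 ± 0.04, FDR = 3.64e-12). THOC6, of the same complex, and PCID2, of the TREX-2 complex, passed 2-fold with log2 fold changes of 1.13 ± 0.08 and 1.11 ± 0.07. In the lamina and the LINC complex, which joins the lamina to the cytoskeleton, 6 of 14 rose and 4 fell. That is close to the background shares, and the median log2 fold change of this list was 0.01. TMPO, a lamin-binding membrane protein, had a log2 fold change of 0.84 ± 0.04, BANF1, which bridges chromatin and the lamina, 1.06 ± 0.06 and emerin (EMD) 1.33 ± 0.11, while SYNE3, a nesprin, was at -1.46 ± 0.11.

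Of 24 markers of proliferation, 14 were higher, 4 lower and 6 not called, with a median log2 fold change of 0.18. Of the protein-coding genes that averaged at least 50 counts, 42.7% were higher and 31.7% lower, with a median of 0.08. CCNE1 (0.94) and CCNE2 (0.65) rose the most of the markers. TOP2A (-0.39) and CCNA2 (-0.23) fell the most, and all 4 are named after their values were seen. The summed level of the 24 markers was 4936 to 4992 CPM in the WT libraries and 5420 to 5519 CPM in those labelled ΔTUT4/7. The ratio of 1.10 is below that of all tested protein-coding genes (1.12) and near that of all tested genes (1.08). The ratio of the 53 transport genes was 1.30. The part of these markers in the changes of the transport genes was not tested.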

How the data were processed

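The authors aligned the reads to hg38 with STAR 2.7.3a and quantified genes in Partek 10.0.22, as named in the submitters' processing notes. The deposited table holds the authors' estimated counts per gene, and 45.2% to 50.0% of a library's values were not whole. Their second table holds only their own comparison and was not used. Counts were rounded, and genes with a largest count above 12 were kept. TMM scaling and edgeR 4.0.16 under R 4.3.3 (quasi-likelihood test, group as the only term) gave log2 fold changes, standard errors and FDR over all 23952 genes, checked on simulated counts. Alternatives used DESeq2 1.42.0, limma 3.58.1, other scalings and filters, and each library left out. Members and gene lists were chosen with earlier results of these data known. Named with full values were, per role, the 2 members with the smallest p and the 2 with the largest change, every member that fell, changed 2-fold or was not called, and RAN, KPNB1, XPO1, KPNA2, NUP98, TPR, POM121 and POM121C; of the other transport genes, the 2 with the smallest p per list and those past 2-fold. In the table the stop lies 1 base past the annotated end, and that base was taken off. Read-length windows and transcript lengths come from GENCODE transcripts.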

Additional observations from a re-analysis of the deposited data

How the results depend on the processing

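Under 15 alternatives to the scaling, tool, filter and libraries, 43 of the 48 called members were called in the same direction each time, and the exceptions were AAAS, NUP155, NUP42, NUP62 and TPR. Library-size scaling moved the median of all genes from -0.02 to -0.13 and upper-quartile scaling to -0.12, and member values fell with it. The number of members higher by 2-fold or more was 2, not 4, with library-size scaling, upper-quartile scaling, limma on log2(CPM + 1) and a minimum mean count of 50, since RAN and RAE1 lie at the threshold. The median log2 fold change of the members was 0.24 with library-size scaling, 0.26 with upper-quartile scaling, 0.24 with limma on log2(CPM + 1), 0.30 with a minimum mean count of 50 and 0.25 with neighbouring genes subtracted. Other transport genes called lower numbered 21 with library-size scaling and 20 with limma on log2(CPM + 1), against 13. NUP50 reversed to -0.033 with library-size scaling, to -0.018 with upper-quartile scaling and to -0.032 with limma on log2(CPM + 1). KPNA1 ranged from -0.050 to 0.028 with single libraries left out, reversing without WT replicate 2 (0.028) and without ΔTUT4/7 replicate 1 (0.0030). With neighbours subtracted, KPNA2 reversed to 0.26, NUP43 to 0.15, NUP54 to 0.24, XPO4 to 0.19 and XPO7 to 0.024. Library-size scaling and limma on log2(CPM + 1) both leave out the TMM factors (1.03 to 1.05 in WT, 0.95 to 0.97 in ΔTUT4/7). Their shifts therefore share 1 change of scale. The cause of the other shifts was not tested. With single libraries left out, 38 to 39 members were higher, 9 to 11 lower, and their median was 0.34 to 0.38.

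The replicate numbers of the labels did not pair the samples (correlations of deviations between same-numbered libraries of -0.02, -0.01 and 0.05). With the replicate block 40 members were higher and 9 lower, KPNA5 being added (0.13, FDR = 0.0475), against 39 and 9 without it. The sums of POM121 with POM121C and of IPO4 with its overlapping gene were chosen after seeing the data. With 3 libraries a group and 1 line each, differences between lines cannot be told apart from the knockout. The depth limits NUP210L, whose mean count was 23.7.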
